A study of Neurospora crassa with 34 samples.

Results

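The genes described here encode the subunits of Polycomb repressive complex 2 (PRC2) and a reader of its mark in Neurospora crassa, a filamentous fungus. They were chosen by name and not by a rule on their measured values, though with earlier results of these data known. They are set-7 (NCU07496), eed (NCU05300), suz12 (NCU05460), npf (NCU06679) and epr-1 (NCU07505), 5 of the 9730 genes in the deposited tables. Their mRNA was counted in poly-A+ libraries from 7 strains that carry a chromosome rearrangement, with 2 libraries a strain, and from 2 libraries labelled as strain OY329 with set-7 deleted, 16 libraries in all. The rearranged strains were AR16 (mat a, an inversion within linkage group (LG) I), ALS159 (mat A, LG IV to LG VI), OY329 (mat A, LG VI to LG III), OY337 (mat A, al-2, LG II to LG IV), OY350 (mat A, LG VIL to LG IR), UK2-32 (mat A, LG IVR to LG VL) and UK3-41 (mat A, inl, LG VR to LG VIL). Each was represented by 1 isolate and the deletion by 2. All cultures were shaken for 16 h at 32 °C in Vogel's minimal medium with 1.5% sucrose, and the tissue was labelled as germinated conidia. Wild-type libraries were not analysed here, so each strain was set against the mean of the other 6.

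PRC2 places methyl groups on lysine 27 of histone H3 (H3K27), a mark that goes with silent genes in fungi, plants and animals. SET-7 is the catalytic subunit, EED and SUZ12 are core subunits that the enzyme needs, and NPF is a histone-binding WD40 protein related to p55 of Drosophila and RbAp46/48 of mammals, which also serves as a subunit of chromatin assembly factor 1 (RefSeq names its gene cac-3). EPR-1 is a BAH and PHD domain protein that binds methylated H3K27 and acts in silencing downstream of the mark.

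Reads on genes numbered 27994440 and 6435058 in the OY329 libraries and 7321698 to 8876052 in the other 12 libraries of the strains. Of all counted reads, 26.3% lay on no gene in OY329 replicate 3 and 23.6% and 27.0% in the deletion libraries, against 10.0% in OY329 replicate 1 and 5.61% to 18.1% in the other 12. An index of 8 nt marked OY329 replicate 1 and both deletion libraries, and the other 13 had one of 6 nt. The mating type gene matA-1 had 0 reads, which allows up to 3, in both libraries of AR16, as its mat a label implies, but also in both libraries of UK2-32, listed as mat A, and in both deletion libraries. It had 7 and 1 reads in ALS159, against 17 to 294 in each library of OY329, OY337, OY350 and UK3-41. The hydrophobin gene eas, a marker of conidia, ranged from 22.5 CPM (counts per 1e6 reads on normalized library sizes) in UK2-32 to 15576 CPM in UK3-41. Between these strains the conidial gene con-6 went the same way as eas, and con-8 and con-10 went the other way. For con-8 the values were 1187 and 1316 CPM in UK2-32 and 23.4 and 90.2 CPM in UK3-41. The cultures were thus not alike in conidial transcripts, and the markers did not share 1 order.

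All 5 genes had reads in all 16 libraries and passed the filter on low counts. Over the 14 strain libraries, set-7 ranged 3.36-fold from its lowest to its highest library, suz12 2.89-fold, npf 2.64-fold and epr-1 2.52-fold. The range of eed was 8.61-fold, on 7 to 85 reads a library. Per kilobase of gene span (introns included), the median level was 32.7 CPM for npf, 9.29 for epr-1, 2.48 for set-7, 2.47 for suz12 and 1.03 for eed. The histone-binding subunit shared with another complex was thus at the highest level per length, and eed at the lowest. The ratio of set-7 to suz12 on this per-length scale lay between 0.482 (AR16 replicate 2) and 1.92 (OY337 replicate 1).

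**Figure D1:**
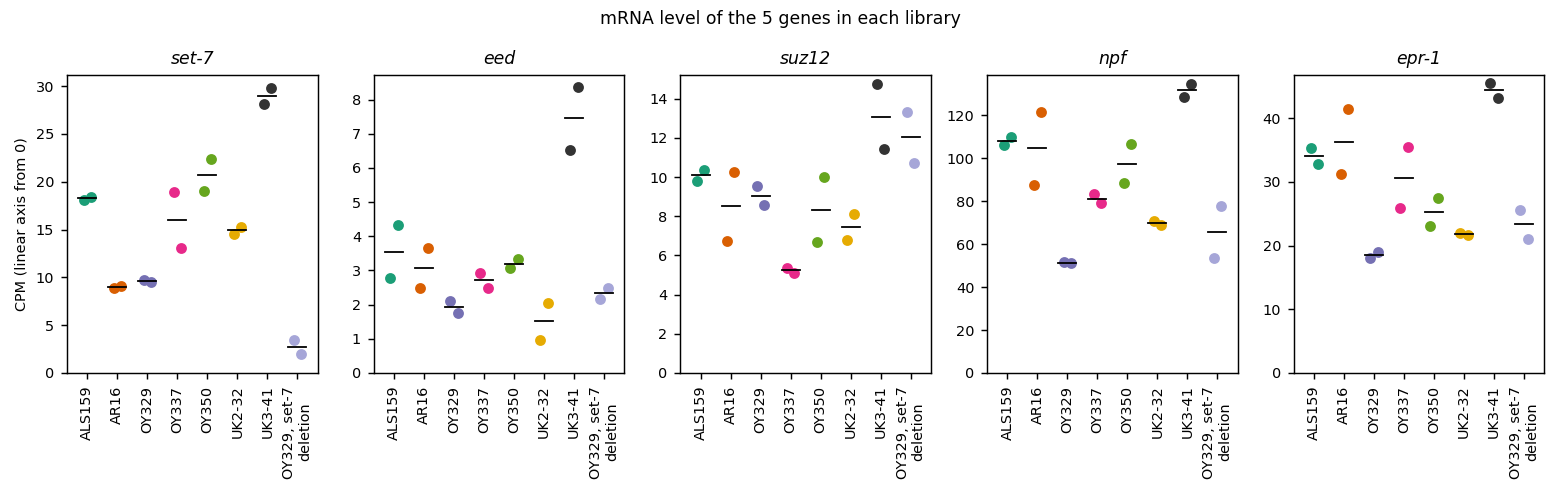
CPM of each gene (vertical axes, linear from 0) in every library, by group (horizontal axis). Points are libraries and bars the mean of the 2 libraries of a group. UK3-41 has the highest mean for each of the 5 genes, and set-7 is lowest in the libraries labelled with its deletion, at 3.47 and 2.00 CPM.

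A test for any difference among the 7 strains (edgeR quasi-likelihood F test, adjusted over 8170 genes) called all 5 genes, where 78.5% of all genes tested were called. The adjusted p was 0.000299 for set-7, 0.000644 for npf, 0.00174 for epr-1, 0.00312 for eed and 0.0239 for suz12. Without both libraries of UK3-41, a choice made after seeing the data, eed (adjusted p = 0.137) and suz12 (adjusted p = 0.12) were no longer called and the other three were. The call of suz12 was also lost on leaving out OY337 replicate 1 (adjusted p = 0.0801), OY337 replicate 2 (adjusted p = 0.0910) or UK3-41 replicate 1 (adjusted p = 0.0986).

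The strains differed in how many of the 5 genes were called. UK3-41 had all 5 higher than the mean of the other strains, in a comparison that called 56.3% of all genes and 29.8% as higher. OY329 had 3 of 5 lower, with 47.8% of all genes called and 21.6% lower. UK2-32 had 3 of 5 lower, with 30.2% called and 12.6% lower. AR16 had set-7 alone lower, with 9.34% called and 3.07% lower, and OY337 had suz12 alone lower, with 11% called and 2.74% lower. ALS159 had npf alone higher, with 51.6% called and 26% higher. No member was called in OY350, where 4.92% of all genes were, although set-7 there had an unadjusted p of 0.00655 in edgeR. In UK3-41, OY329 and ALS159 large parts of the transcriptome differed, so a call there is common among all genes, and calls were scarcer in AR16, OY337 and OY350.

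**Figure D2:**
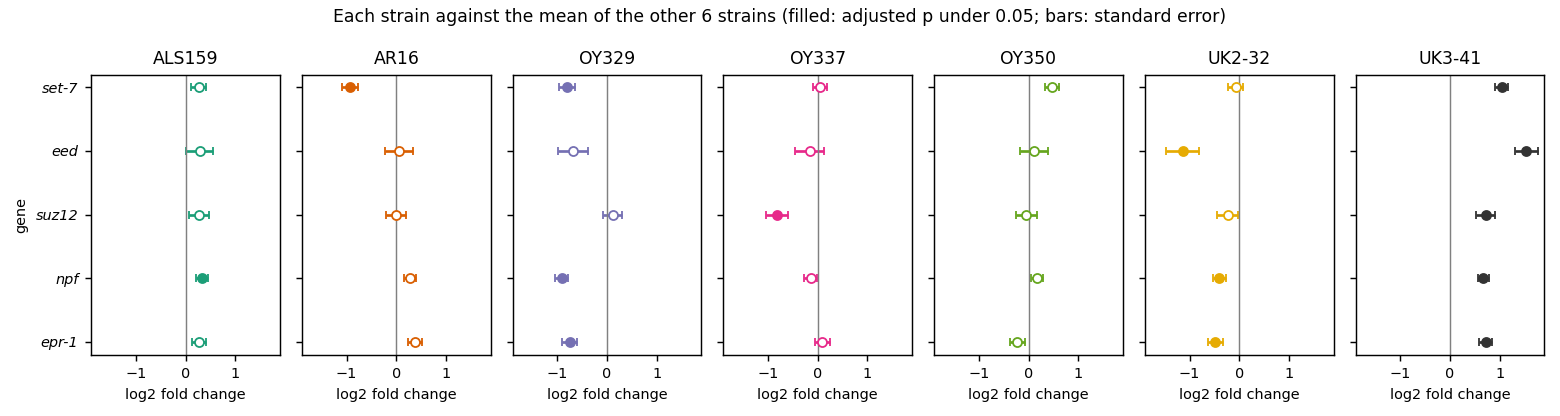
Log2 fold change of each gene (rows) in each strain against the mean of the other 6 (horizontal axes), with its standard error as bars. Filled points have an edgeR adjusted p under 0.05. All 5 points are filled on the right in UK3-41, and the only filled points of AR16 and OY337 are set-7 (-0.93) and suz12 (-0.82).

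For set-7, the catalytic subunit, replicates lay close together in most strains. UK3-41 had 28.1 and 29.8 CPM, OY350 19.1 and 22.4, ALS159 18.1 and 18.4, OY337 19.0 and 13.1, UK2-32 14.6 and 15.3, OY329 9.72 and 9.52, and AR16 8.88 and 9.08. In this order, OY337 overlapped both its neighbours, ALS159 and UK2-32, and no other neighbours overlapped. AR16 and OY329 thus formed the low end and UK3-41 the high end. Against the other strains, set-7 was 2.06-fold higher in UK3-41 (log2 fold change 1.04, standard error 0.133, edgeR adjusted p = 0.00011). In AR16 it was 1.91-fold lower (log2 fold change -0.93, standard error 0.161, edgeR adjusted p = 0.00725), and both libraries lay below the other 12. Without AR16 replicate 2 the log2 fold change was -0.95 and the edgeR adjusted p 0.0623, in a fit where the 1 AR16 library left is assumed to vary like the other strains. In OY329 it was 1.76-fold lower (log2 fold change -0.81, standard error 0.158, adjusted p = 0.00215), and only the AR16 libraries were lower still. In OY350 the log2 fold change of 0.48 had an adjusted p of 0.0838.

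For eed, a core subunit with few reads, the levels were lower and the replicates further apart. UK3-41 had 6.54 and 8.37 CPM (70 and 85 reads), ALS159 2.77 and 4.32, OY350 3.07 and 3.33, AR16 2.50 and 3.66, OY337 2.93 and 2.50, OY329 2.10 and 1.75, and UK2-32 0.972 and 2.06. The libraries of ALS159, OY350, AR16 and OY337 overlapped each neighbour in this order, as did those of OY329 and UK2-32, while UK3-41 stood above all others. Here the log2 fold change of UK3-41 was 1.54 (standard error 0.237, edgeR adjusted p = 0.000345), which is 2.9-fold. In UK2-32 eed was 2.21-fold lower (log2 fold change -1.14, standard error 0.335, adjusted p = 0.0275), but UK2-32 replicate 1 had 7 reads (95% exact Poisson interval 2.81 to 14.4), and without it the adjusted p was 0.294. In OY329 the log2 fold change of -0.69 had an adjusted p of 0.076, and it passed without UK2-32 replicate 1 (adjusted p = 0.0463).

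For suz12, the other core subunit, the low strain was OY337. OY337 had 5.38 and 5.11 CPM, UK2-32 6.80 and 8.10, OY350 6.67 and 9.98, AR16 6.75 and 10.3, OY329 9.57 and 8.55, ALS159 9.80 and 10.4, and UK3-41 14.8 and 11.4. Both OY337 libraries lay below the other 12 (6.67 to 14.8 CPM), and both UK3-41 libraries above, while the neighbours from UK2-32 to OY329 overlapped. The gene was 1.76-fold lower in OY337 (log2 fold change -0.82, standard error 0.222, edgeR adjusted p = 0.0396). This call is near the threshold. It was lost, with adjusted p from 0.0529 to 0.277 and log2 fold changes from -0.86 to -0.77, on leaving out either library of OY337, ALS159 or UK2-32, OY350 replicate 2 or UK3-41 replicate 1. In UK3-41 suz12 was 1.64-fold higher (log2 fold change 0.72, standard error 0.188, adjusted p = 0.00777), and the call was lost without UK3-41 replicate 1 (log2 fold change 0.52, adjusted p = 0.152).

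Of the subunits, npf had the most reads, 263 to 1377 a library. UK3-41 had 129 and 135 CPM, ALS159 106 and 110, AR16 87.5 and 122, OY350 88.3 and 107, OY337 83.1 and 79.0, UK2-32 70.8 and 68.8, and OY329 51.7 and 51.1. ALS159, AR16 and OY350 overlapped, and no other neighbours in this order did. In OY329 npf was 1.88-fold lower (log2 fold change -0.91, standard error 0.134, edgeR adjusted p = 0.000546), below all other 12 libraries. In UK3-41 it was 1.59-fold higher (log2 fold change 0.67, standard error 0.117, adjusted p = 0.000727). The smaller changes in UK2-32 (log2 fold change -0.40, adjusted p = 0.0397) and in ALS159 (log2 fold change 0.34, adjusted p = 0.0375) left both strains within the range of the other 12 libraries. Each was lost with 9 of the 14 libraries left out in turn. For UK2-32 these were either library of UK2-32, ALS159, OY337 or UK3-41 and OY350 replicate 2 (log2 fold changes -0.42 to -0.37, adjusted p 0.0564 to 0.228), and for ALS159 either library of ALS159, OY337, UK2-32 or UK3-41 and OY350 replicate 1 (log2 fold changes 0.31 to 0.36, adjusted p 0.0525 to 0.19). In AR16, npf passed only without AR16 replicate 1 (log2 fold change 0.50, adjusted p = 0.0336).

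The reader gene epr-1 gave an order much like that of npf. UK3-41 had 45.5 and 43.2 CPM, AR16 31.3 and 41.4, ALS159 35.4 and 32.7, OY337 25.9 and 35.4, OY350 23.1 and 27.5, UK2-32 21.9 and 21.6, and OY329 18.0 and 19.0. The strains from AR16 to OY350 overlapped their neighbours in this order, UK3-41 lay above every other library and OY329 below. It was 1.69-fold lower in OY329 (log2 fold change -0.76, standard error 0.156, edgeR adjusted p = 0.00293) and 1.64-fold higher in UK3-41 (log2 fold change 0.72, standard error 0.136, adjusted p = 0.0012). In UK2-32 it was 1.39-fold lower (log2 fold change -0.48, adjusted p = 0.0381). This call was lost, with log2 fold changes from -0.49 to -0.44 and adjusted p from 0.0525 to 0.205, on leaving out either library of UK2-32, ALS159 or UK3-41, OY337 replicate 2 or OY350 replicate 2.

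Across the 14 strain libraries, which share the normalization and fall in pairs by strain, log2 CPM of npf and epr-1 had a Pearson r of 0.895. It was 0.85 over the 12 libraries without UK3-41. For eed the r was 0.803 with npf and 0.762 with epr-1, and 0.711 and 0.608 without UK3-41. For set-7 the r was 0.632 with eed and 0.617 with npf (0.286 and 0.41 without UK3-41). With suz12 it was 0.363 (-0.05), and with epr-1, also on LG I, 0.417 (0.05). For suz12 it was 0.592 with eed, 0.478 with npf and 0.409 with epr-1 (0.297, 0.23 and 0.067 without UK3-41). Between 73.4% and 97.1% of all genes had a lower r with the first gene of a pair, 96.6% for npf with epr-1 and 73.4% for set-7 with suz12. The share of reads on no gene had an r of -0.44 with npf and -0.42 with epr-1 over these libraries, and its part in their likeness was not tested. These values describe 7 strains with UK3-41 at the high end of each gene and carry no test.

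**Figure D3:**
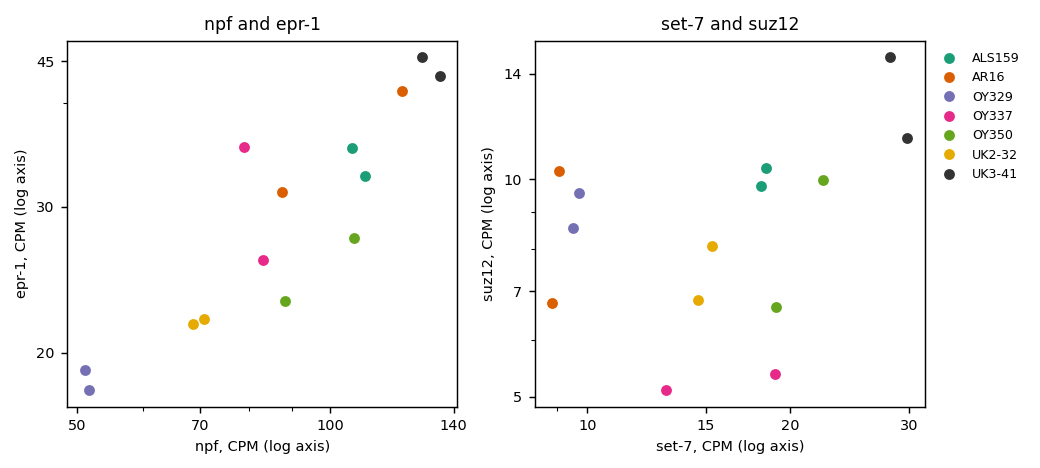
Level of 2 pairs of genes in the 14 strain libraries (CPM, log axes), coloured by strain. The points of npf and epr-1 lie along a line (r = 0.895 of log2 CPM), and those of set-7 and suz12 scatter outside UK3-41 (r = 0.363 with it).

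The 3 genes whose log2 CPM followed each member most closely over the 14 libraries were named by the same measure. They were NCU02036 (r = 0.883), NCU06019 (r = 0.881) and crf2-1 (r = 0.87) for set-7, and NCU03784 (r = 0.939), NCU01311 (r = 0.929) and en(am)-2 (r = 0.928) for eed. For suz12 they were NCU02784 (r = 0.922), NCU06654 (r = 0.918) and lys-7 (r = 0.909). For npf they were NCU04463 (r = 0.978), NCU08923 (r = 0.977) and NCU03266 (r = 0.97), and for epr-1 NCU16769, NCU07069 and NCU04495 (each with r of 0.966 to 0.97). Since they were picked on these libraries, their likeness is a description and no more.

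Other chromatin genes were counted from lists by name. In UK3-41, where 56.3% of all genes were called and 29.8% higher, 4 of 9 other SET domain methyltransferase genes were higher and 3 lower, with a median log2 fold change of -0.04 beside 0.02 over all genes. The higher ones included set-1 (log2 fold change 0.67, adjusted p = 0.00388) and set-2 (log2 fold change 0.90, adjusted p = 0.000392), for H3K4 and H3K36 methylation, and dim-5 for H3K9 methylation (log2 fold change 0.42, adjusted p = 0.0253), while set-9 was lower (log2 fold change -2.12, adjusted p = 4.98e-05). Of 7 genes for H3K9 methylation, its reader and DNA methylation, 4 were higher in UK3-41 and none lower (median 0.35), among them hpo, the gene of the reader HP1 (log2 fold change 0.43, adjusted p = 0.00996). Neither of the genes for the partners of NPF in chromatin assembly factor 1, cac-1 and cac-2, was called in any strain. In OY329, where npf was low, cac-1 had a log2 fold change of -0.30 (adjusted p = 0.0511) and cac-2 of -0.009 (adjusted p = 0.953). In UK3-41, where npf was high, cac-1 had 0.16 (adjusted p = 0.248) and cac-2 0.21 (adjusted p = 0.0726). Both genes of the ISWI remodeller list, crf4-1 and crf4-2, were called in the same direction as npf and epr-1 in OY329 (log2 fold changes -0.76 and -0.64) and in UK3-41 (0.65 and 1.01). Histone H3 and H4 genes were higher in UK3-41, 3 of 3 (median 0.44), and not called in OY329. In OY329, where 47.8% of all genes were called and 21.6% lower, the counts were 3 higher and 2 lower of the 9 SET genes (median 0.26 beside 0.04 over all genes), and 2 lower of the 7 H3K9 genes (median -0.27), with hpo at -1.18 (adjusted p = 0.000214). In UK2-32, where 30.2% of all genes were called, 4 of the 9 SET genes and 2 of the 7 H3K9 genes were higher and none lower. The set-7 deletion against OY329 called 7.54% of all genes. Of these lists it called set-6 (log2 fold change 1.78, edgeR adjusted p = 0.0288) and hpo (0.88, adjusted p = 0.0362), both higher.

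The conidial markers moved with these strains too. In UK3-41 eas had 5022 and 15576 CPM and in OY337 7475 and 1784, against at most 411 CPM in each library of the other 5 strains. Another conidial gene, con-8, had 23.4 and 90.2 CPM in UK3-41, 1205 and 1813 in OY329 and 1.81 and 3.95 in ALS159. In UK2-32 con-8 had 1187 and 1316 CPM. Of the 4 markers, 1 was called higher and 1 lower in UK3-41, where 56.3% of all genes were called. OY329 had 2 higher (47.8% of all genes called) and OY337 2 higher (11%). UK2-32 had 2 higher and 1 lower (30.2%), and ALS159 3 lower (51.6%). None was called in AR16 (9.34%) or OY350 (4.92%). The gene inl, named in the label of UK3-41, had 1976 and 1671 CPM there, against 65.5 to 584 CPM in the other strain libraries. Only UK3-41 carries the inl label, so inl and the rearrangement cannot be told apart there. The part of the conidial markers, of inl and of the mating type reads in the values of the 5 genes was not tested. In bulk samples, a different mix of cells and a different level per cell cannot be told apart.

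The deletion libraries check the label of set-7 and set the other 4 genes beside it. OY329 had 255 and 49 reads of set-7 (9.72 and 9.52 CPM). The libraries labelled with its deletion had 40 reads (95% exact Poisson interval 28.6 to 54.5, counting error only) and 16 reads (9.15 to 26.0), or 3.47 and 2.00 CPM, which is 36.0% and 20.7% of the OY329 mean. The gene was therefore lower in both, but not without reads, and counts per gene do not show where in the gene the reads lie. Against OY329, set-7 was 3.45-fold lower (log2 fold change -1.79, standard error 0.265, edgeR adjusted p = 0.0036, 8223 genes), in a comparison that called 7.54% of all genes, 2.7% as lower. The call held with each of the 16 libraries left out in turn (log2 fold changes from -2.26 to -1.47). Without OY329 replicate 3, which leaves 3 libraries of 1 index length, it was -1.80 (adjusted p = 0.00578), with the 1 OY329 library left assumed to vary like the other groups. A fit on these 4 libraries alone, which called 17 genes, gave -1.84 (adjusted p = 0.251).

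No other member was called in the deletion comparison. In the deletion libraries, eed had 2.17 and 2.49 CPM, suz12 13.3 and 10.7, npf 53.5 and 77.8, and epr-1 25.6 and 21.1. The log2 fold changes of these 4 genes against OY329 were 0.24, 0.40, 0.35 and 0.34. The adjusted p was 0.741 for eed, 0.375 for suz12, 0.294 for npf and 0.319 for epr-1. Per length, the ratio of set-7 to suz12 fell to 0.142 and 0.101. The deletion libraries also differed from OY329 in matA-1 (0 and 0 reads against 38 and 18) and in the carotenoid gene al-2 (1410 and 428 CPM against 4302 and 5133). The part of these differences in the comparison was not tested, and other differences in genotype cannot be told apart from the deletion.

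**Figure D4:**
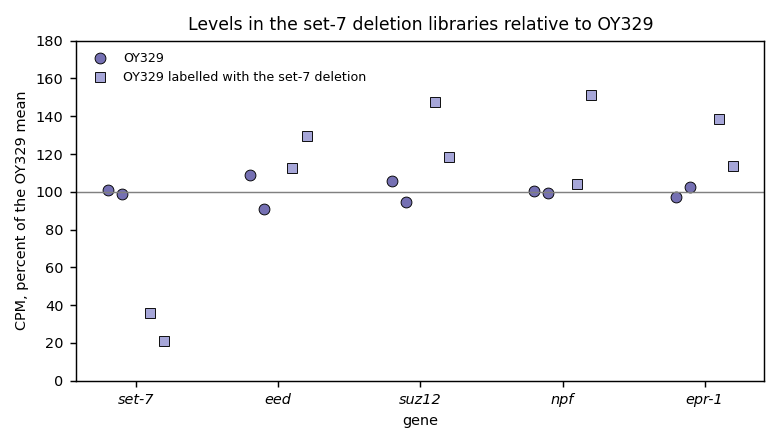
CPM of each gene as a percent of its OY329 mean (vertical axis, linear from 0) in the 2 OY329 libraries (circles) and the 2 libraries labelled with the set-7 deletion (squares). set-7 lies at 36.0% and 20.7%, and none of the other 4 genes passed the test.

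The loci of set-7 and epr-1 lie close together on LG I, and the genes numbered NCU07491 to NCU07510 hold both. Of these 20 genes, 16 were tested in the deletion comparison. Of these 3 were called, where 7.54% of all genes were, set-7 as lower and 2 as higher. NCU07491 had a log2 fold change of 2.10 (adjusted p = 0.0107). NCU07510 had one of 4.45 (adjusted p = 0.0136), but it passed the filter on low counts only with the deletion libraries included. Its call, 1 of the 3, therefore rests on a filter passed through the group where it was high. The genes numbered next to set-7 were not called, with NCU07495 at 0.91 (adjusted p = 0.0534) and NCU07497 at -0.29 (adjusted p = 0.458). In the strains 15 of the 20 were tested. OY329 had 7 lower, set-7 and epr-1 among them, and 1 higher (21.6% of all genes lower), ALS159 5 higher and 2 lower (51.6% called), UK3-41 5 higher (29.8% higher), UK2-32 1 higher and 3 lower (30.2% called), and OY337 and OY350 none. In AR16, whose rearrangement lies on LG I, 2 were lower (3.07% of all genes), set-7 and NCU07493 (log2 fold change -0.71, adjusted p = 0.0126).

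The authors also deposited a list of genes where H3K27me2/3 was gained or lost in a strain relative to wild type, from their ChIP-seq, and it holds 1 of the 5 members. It is suz12, on LG II, listed as a gain in OY337, the strain in which suz12 was lowest. The other 4 members are not listed for any strain. In the order of position suz12 is the first of 59 genes listed as gained in OY337, all on LG II. Of these, 43 were tested, 14 were lower and 1 higher in OY337, where 2.74% and 8.24% of all genes were, and the median log2 fold change was -0.73 against 0.00 over all genes. Thus suz12 was among the listed genes called lower, and the listing compares OY337 with wild type, not with the other strains.

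The genes beside suz12, looked at after its values were seen, could be tested on its unlisted side only. On the unlisted side, NCU05459 had 53.8 and 46.7 CPM in OY337 (47.9 to 84.1 in the other 12 libraries, log2 fold change -0.22, adjusted p = 0.218). NCU05458 had 39.0 and 39.1 CPM (16.9 to 51.4, log2 fold change 0.07, adjusted p = 0.859). NCU16537 and cya-4 were not called either (adjusted p = 0.586 and 0.256). On the listed side, NCU05462, NCU05463, NCU05466 and NCU05467 had 0 reads in OY337 and 0 to 1.21 CPM elsewhere, too few to test. The 4 tested neighbours on the unlisted side were therefore not called, and of the 5 listed genes looked at only suz12 had reads enough to be tested.

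**Figure D5:**
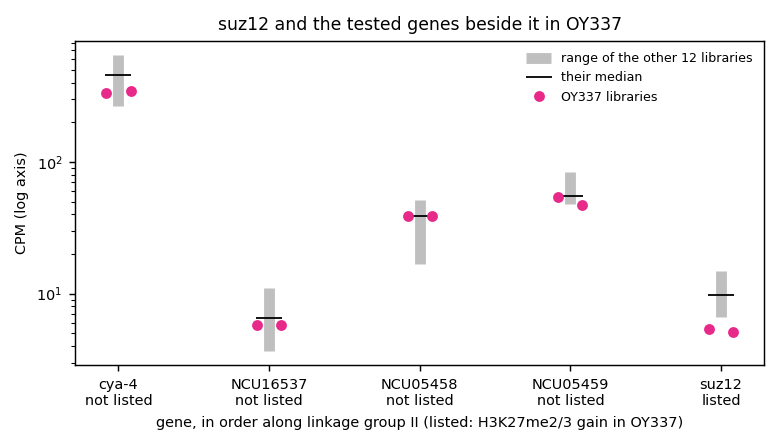
CPM (log axis) of suz12 and the 4 tested genes on its unlisted side in OY337 (points) beside the range and median of the other 12 strain libraries (bars). Only suz12, listed as gaining H3K27me2/3 in OY337, has both points below the range, at 5.38 and 5.11 CPM against 6.67 or more. The listed genes on its other side had too few reads to test and are not drawn, so listed and unlisted genes are not compared here.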

How the data were processed

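Counts of reads per gene, as deposited by the authors without normalization, were read for 16 poly-A+ mRNA libraries. The summary rows of each library, which name no gene, were left out. The submitters' processing notes name TopHat, HTSeq, DESeq, SAMtools, Bowtie2 and BWA without roles, and annotation release and strandedness are not given in the sources used here, so reads of overlapping antisense genes cannot be told apart. The authors' table of H3K27me2/3 gains and losses gave only the listing of genes. Its fold changes and p-values against wild type, and 1 column of values per sample, were not used.

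Group and replicate came from the labels. Libraries of a strain came from 1 isolate, so p-values measure the spread between these libraries, pooled over the groups of a fit. A group left with 1 library is assumed to vary like the others. Replicates differed by more than counting error (chi-square per gene 11.0 to 181). This value was highest in OY329 (181) and the deletion (118), the groups of the deletion comparison, and at most 69.0 in the others. It grows with read depth, which was greatest in OY329 replicate 1, and the deletion libraries came from different isolates. The groups are therefore not compared on equal terms by it. Counts were tested with edgeR 4.0.16 (limma 3.58.1, R 4.3.3) after TMM and filterByExpr, by quasi-likelihood over 8170 genes (14 libraries, strain as factor) or 8223 (16 libraries, for the deletion). Calls needed a Benjamini-Hochberg adjusted p under 0.05. A standard error is the log2 fold change divided by the square root of F. CPM use TMM sizes of all 16 libraries, and correlations use log2 CPM with a prior count of 2. Total counts in place of TMM moved all genes by 0.11 (ALS159), -0.24 (OY329), -0.12 (OY350), -0.13 (UK2-32), 0.30 (UK3-41) and 0.21 (deletion) on the log2 scale, and less than 0.1 in AR16 and OY337. RefSeq (assembly NC12) matched 9729 of 9730 identifiers and gave symbols, linkage groups, gene order and gene spans. No coordinates are given. Alternatives were total counts, a minimum of 1 count, all 16 libraries, DESeq2 1.42.0, a replicate block, each library or both OY329 libraries left out, and, added after seeing the data, both UK2-32 or both UK3-41 libraries left out. The genes and lists were chosen with earlier results of these data known. Named genes were the 5 members, the 3 most alike for each, the listed chromatin genes and the 20 genes around set-7 and epr-1.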

Additional observations from a re-analysis of the deposited data

How the results depend on the processing

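Of 45 results, 294 of 325 recomputed values kept direction and call under alternatives other than leaving out 1 library, and 584 of 640 did with a library left out. The calls of UK3-41 for all 5 genes, and of OY329 for set-7, npf and epr-1, held under each alternative, except that of suz12 in UK3-41, lost without UK3-41 replicate 1. No called value changed sign. With total counts in place of TMM, eed in OY329 passed (-0.89, adjusted p = 0.0323), suz12 in OY337 did not (-0.77, adjusted p = 0.0625), and values near 0 changed sign for suz12 in AR16 (0.022), suz12 in OY329 (-0.11) and eed in OY350 (-0.012). With all 16 libraries in the fit, npf was lost in ALS159 (0.34) and in UK2-32 (-0.40). Without both OY329 libraries npf was lost in ALS159 (0.22), and eed in AR16 (-0.078), set-7 in OY337 (-0.12), epr-1 in OY337 (-0.055), eed in OY350 (-0.015) and npf in OY350 (-0.0051) changed sign. Without both UK2-32 libraries, npf was lost in ALS159 (0.28), eed passed in OY329 (-0.91), and eed changed sign in AR16 (-0.14) and OY350 (-0.076). Without both UK3-41 libraries, set-7 (0.44) and epr-1 (0.40) passed in ALS159. The calls of suz12 in OY337 (-0.72), of eed (-0.91), npf (-0.30) and epr-1 (-0.37) in UK2-32, and of eed (1.16) and suz12 (0.91) for any difference were lost. Signs changed for suz12 in AR16 (0.11) and OY350 (0.078), eed in OY337 (0.10) and set-7 in UK2-32 (0.10). The fit on 4 libraries lost set-7 in the deletion (-1.84). The cause of these changes was not tested.

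With 1 library left out, the lowest and highest log2 fold changes were 0.28 and 0.38 for npf in ALS159, -0.064 and 0.58 for eed in ALS159, -0.97 and -0.88 for set-7 in AR16, -0.25 and 0.29 for eed in AR16, -0.34 and 0.26 for suz12 in AR16, and 0.026 and 0.50 for npf in AR16. They were -0.86 and -0.57 for eed in OY329, -0.25 and 0.29 for set-7 in OY337, -0.86 and -0.76 for suz12 in OY337, -0.15 and 0.30 for epr-1 in OY337, and -0.36 and 0.22 for suz12 in OY350. In UK2-32 they were -1.77 and -0.69 for eed, -0.43 and -0.35 for npf and -0.51 and -0.44 for epr-1. They were 0.52 and 0.89 for suz12 in UK3-41, and the range of strain means of suz12 was 1.09 to 1.45.

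A replicate block was fitted although the numbers do not pair the libraries. Of 15 pairs of strains 3 had a correlation of same-numbered deviations over 0.1 (range -0.26 to 0.39). The block changed no call, and eed in AR16 moved to -0.00222. Few reads limit eed (7 to 85 a library) and set-7 in the deletion.

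Counts of called genes over all genes moved by over 1.5 times in some fits. For OY350 (402) they were 641 with DESeq2, 604 with the block, 1343 without OY329 and 204 without UK3-41. For OY337 (897) they were 1421 with the block, 2174 without OY329 and 475 without UK3-41, for UK2-32 (2465) 3744 and 1371 without those strains, and for AR16 (763) 492 without UK2-32. For the deletion (620) they were 949 with total counts, 1023 with DESeq2 and 17 in 4 libraries. With 1 library left out, counts ran from 77 (without OY350 replicate 2) to 832 for OY350, 134 (without OY337 replicate 1) to 1446 for OY337, 215 (without AR16 replicate 2) to 1155 for AR16, 641 (without UK2-32 replicate 2) to 3186 for UK2-32, 1915 (without ALS159 replicate 1) to 4647 for ALS159, 2951 (without UK3-41 replicate 1) to 5070 for UK3-41 and 367 (without OY329 replicate 1) to 876 for the deletion. With total counts, 3581 of 4925 called genes were higher in UK3-41 (2437 of 4598 with TMM), 1400 of 3984 in OY329 (2139 of 3902), 202 of 362 in OY350 (314 of 402), 1066 of 2453 in UK2-32 (1432 of 2465) and 839 of 949 in the deletion (398 of 620).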

Other observations

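In ALS159, where npf alone of the 5 genes was called, genes of other SET domain methyltransferases were called in both directions. Of 9 tested, 3 were higher and 3 lower, where 51.6% of all genes were called and 26% higher (median log2 fold change -0.21 beside -0.00 over all genes). The gene set-2 was higher (log2 fold change 0.80, edgeR adjusted p = 0.00139), and set-5 (-2.73, adjusted p = 0.0062) and set-6 (-2.21, adjusted p = 0.00248) were lower. Few reads underlie the lower values, with a mean in ALS159 of 0.707 CPM for set-5 and 2.59 CPM for set-6. In AR16, set-2 (-0.94, adjusted p = 0.00918) and set-8 (-1.01, adjusted p = 0.0303) were lower beside set-7, as was dim-5 (-0.60, adjusted p = 0.0384), 3 of 9 in all, where 3.07% of all genes were lower. In UK3-41 56.3% of all genes were called, and in OY329 47.8%. Of 4 histone deacetylase genes, 1 was higher and 1 lower in UK3-41 and 1 higher and 2 lower in OY329. Of these hda-3 was higher in UK3-41 (0.93, adjusted p = 0.00081) and lower in OY329 (-1.41, adjusted p = 0.000535), and hda-4 the reverse (-0.44, adjusted p = 0.0382, and 0.56, adjusted p = 0.0101).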
